A study of Mus musculus with 6 samples.

Results

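The genes described here are those of respiratory complexes II and III, cytochrome c and ATP synthase, measured in the interscapular brown fat of mice held in the cold and of control mice. They were chosen by symbol from the protein-coding genes of the GENCODE M21 annotation: symbols beginning with Atp5, Uqc or Sdha to Sdhd, with Sdhaf1 to Sdhaf4, Cyc1, Cycs and Atpif1. The rule gave 40 genes, of which 38 had reads, among 8129 genes with reads in the series. No read was assigned to Atp5s or to a second gene record that also carries the symbol Atp5o. The remaining Atp5o record is the peripheral stalk gene described here.

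The cold mice were male wild type C57BL/6N animals of 20 weeks that spent 24 h at 4 °C, each in its own cage, and the records of the control mice give the same strain, sex, genotype and age. The records give the cold text for all 6 samples, so that titles and treatment tags decided the groups. Whether control mice were caged singly is not given in these sources. Husbandry was at 22 to 24 °C. Each group had 3 mice, named below by their mouse numbers, with 1 library each. RNA went through 2 rounds of poly(A) selection. The TeloPrime kit, which favours capped and complete molecules, made cDNA from it over 27 PCR cycles, and each library was read on 2 nanopore flow cells. Cold libraries held 2923005, 2982713 and 2951890 reads, and control libraries 1849431, 1014847 and 1735360 reads. Values are CPM, read counts relative to the library total, after scaling by TMM, a factor computed for each library from the bulk of its genes. A floor of 3 reads corresponds to at most 1.03 CPM in cold libraries and to 1.62 to 2.96 CPM in control libraries before that scaling.

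The tissue label reads interscapular brown fat, although the extraction text speaks of eWAT, which is white fat. All 12 brown adipocyte markers listed had reads, and 11 could be tested. Ucp1, the uncoupling protein that defines brown fat, stood at 4129 ± 45.0 CPM in cold and 4520 ± 335 CPM in control libraries (SD, n = 3 each). Its log2 change of -0.13 had a standard error of 0.13 and an adjusted p of 0.475 by edgeR. Elovl3, Kcnk3 and Plin5 of that list were higher in the cold, and Adipoq and Cox8b were lower. The summed level of 15 skeletal muscle markers was 314, 3709 and 18046 CPM in cold mice 4, 11 and 15, against 230, 788 and 1269 CPM in control mice 2, 9 and 14. Each library had reads of 11 to 14 of the 15, and all 10 that could be tested had a positive log2 change without passing the test. The part of this muscle signal in the results was not tested, and values without cold mice 11 and 15 are given where it could bear on a call. Tissue was taken whole, so that fewer cells of a type and less RNA per cell cannot be told apart.

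Complex II, succinate dehydrogenase, passes electrons from succinate to ubiquinone, and complex III passes them on from ubiquinol to cytochrome c while pumping protons. ATP synthase lets protons flow back through a rotating ring of c subunits and makes ATP. In brown fat, Ucp1 returns protons without making ATP, and the tissue is known for much respiratory chain and little ATP synthase, a shortage linked to the c-subunit gene Atp5g1. All subunits of complex II are encoded in the nucleus, whereas complex III takes cytochrome b, and ATP synthase takes a pair of membrane subunits, from mitochondrial DNA.

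After 24 h in the cold, transcripts of most of these nuclear genes differed little between the groups, and the largest called changes among them were in assembly factors. The partners encoded in mitochondrial DNA, which are not among the 40 genes, were lower in the cold. Of the 34 genes with enough reads for the test, 5 passed it, which is 14.7%. Over all 2093 genes tested, 33.2% passed in either direction, 18.1% as higher and 15.1% as lower in the cold. The test was edgeR's quasi-likelihood test with Benjamini-Hochberg adjustment over all genes tested, and a gene was called at an adjusted p under 0.05. Sdhaf4 and Uqcc1, assembly factors of complexes II and III, were higher. Sdhc, Atp5d and Atp5k, which encode subunits, were lower. Atp5g1, Atpif1, Sdhaf2 and Sdhaf3 had too few reads to be tested.

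The changes were also small in size. The median absolute log2 change was 0.25 over the 34 genes and 0.55 over all genes tested. Their median standard error was 0.17, against 0.29 over all genes, and their median level was 2177 CPM, against 26.2 CPM. For 29 of the 34 genes the 95% interval of the change lay inside a 2-fold difference in either direction, and for 12 it lay inside 1.5-fold. The corresponding shares were 85.3% and 35.3% for these genes, and 34.2% and 5.83% for all genes. The exceptions at 2-fold were Atp5k, Sdhaf1, Sdhaf4, Uqcc1 and Uqcc3.

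The median log2 change was -0.12 over the 34 genes, against 0.04 over all genes tested, with 22 negative and 12 positive values. Without the count filter the median over 38 genes was 0.06, against 0.30 over the 8129 genes then fitted. At an unadjusted p under 0.05 there were 11 of the 34 genes, or 32.4%, against 44.0% of all genes. Cold and control libraries did not overlap for 11 of the 34 genes, or 32.4%, against 47.8% of all genes. Every cold library was below every control in 8 of the 34 genes and in 21.8% of all genes. Every cold library was above every control in 3 of the 34 genes and in 26.0% of all genes.

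**Figure D1:**
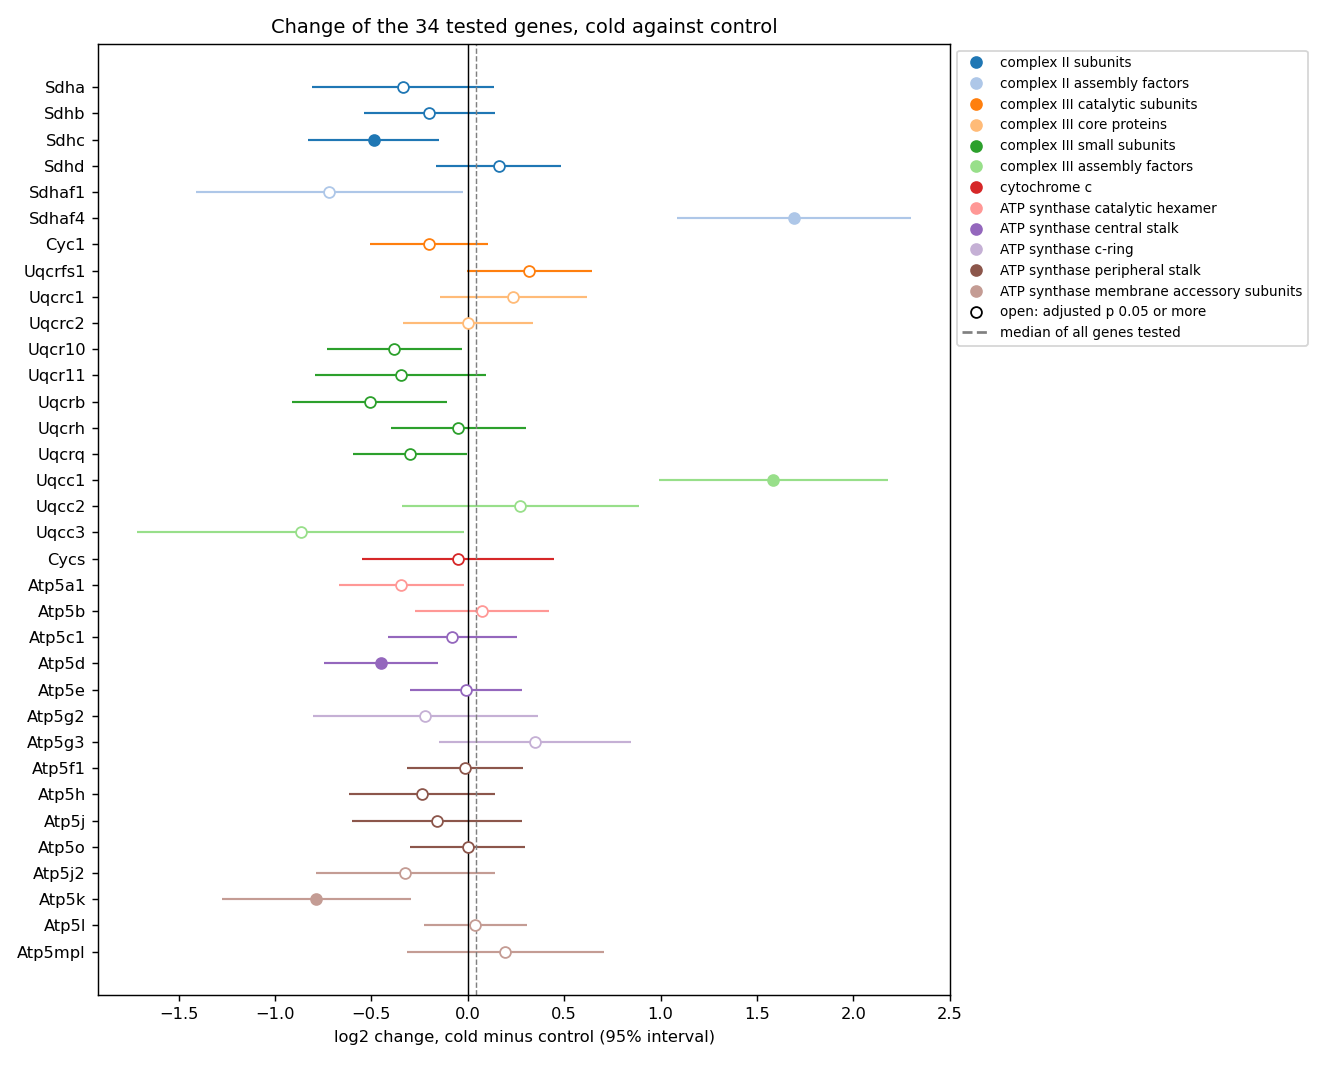
Each point is the log2 change of 1 gene (x axis, cold minus control, with its 95% interval from edgeR), and genes run down the page by complex and role. Filled points passed the test: Sdhaf4 and Uqcc1 lie to the right, at 1.69 and 1.58, and Sdhc, Atp5d and Atp5k to the left, between -0.45 and -0.78. The dashed line is the median of all genes tested, 0.04.

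Promoters of the called genes Sdhaf4, Uqcc1 and Atp5k and of the 3 c-subunit genes are printed here to show what lies at their starts. Those of Atp5d and Sdhc, which were also called, are not printed. For Sdhc no RefSeq promoter was matched. The stretches run from 250 bases before to 50 bases after the gene start in RefSeq's annotation of GRCm38.p6, 5′ to 3′ on the gene's strand. Capitals mark matches on either strand to 4 motifs named below.
Sdhaf4 (chr1:24005591-24005890, minus strand): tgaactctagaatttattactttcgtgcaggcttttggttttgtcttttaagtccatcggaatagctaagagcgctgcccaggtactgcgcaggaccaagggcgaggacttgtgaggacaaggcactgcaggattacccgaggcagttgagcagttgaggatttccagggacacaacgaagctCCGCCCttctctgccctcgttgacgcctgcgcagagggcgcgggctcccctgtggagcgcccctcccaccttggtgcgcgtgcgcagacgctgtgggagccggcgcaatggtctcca
Uqcc1 (chr2:155930261-155930560, minus strand): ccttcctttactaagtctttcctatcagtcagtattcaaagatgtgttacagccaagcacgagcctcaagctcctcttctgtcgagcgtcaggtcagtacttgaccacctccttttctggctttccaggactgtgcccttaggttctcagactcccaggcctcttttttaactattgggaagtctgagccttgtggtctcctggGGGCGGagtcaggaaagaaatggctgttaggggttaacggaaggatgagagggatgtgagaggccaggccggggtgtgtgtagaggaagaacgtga
Atp5k (chr5:108434350-108434649, minus strand): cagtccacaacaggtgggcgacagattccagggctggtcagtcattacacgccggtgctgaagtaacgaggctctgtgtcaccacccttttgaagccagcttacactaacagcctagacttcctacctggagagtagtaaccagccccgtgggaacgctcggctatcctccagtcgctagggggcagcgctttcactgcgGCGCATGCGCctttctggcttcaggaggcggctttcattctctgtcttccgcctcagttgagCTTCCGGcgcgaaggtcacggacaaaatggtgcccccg
Atp5g1 (chr11:96075582-96075881, minus strand): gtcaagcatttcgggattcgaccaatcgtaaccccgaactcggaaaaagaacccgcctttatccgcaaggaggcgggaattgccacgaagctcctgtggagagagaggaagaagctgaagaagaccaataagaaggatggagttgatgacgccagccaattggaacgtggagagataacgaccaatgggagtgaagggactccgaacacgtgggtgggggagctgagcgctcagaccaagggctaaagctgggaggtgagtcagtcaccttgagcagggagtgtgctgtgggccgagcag
Atp5g2 (chr15:102670998-102671297, minus strand): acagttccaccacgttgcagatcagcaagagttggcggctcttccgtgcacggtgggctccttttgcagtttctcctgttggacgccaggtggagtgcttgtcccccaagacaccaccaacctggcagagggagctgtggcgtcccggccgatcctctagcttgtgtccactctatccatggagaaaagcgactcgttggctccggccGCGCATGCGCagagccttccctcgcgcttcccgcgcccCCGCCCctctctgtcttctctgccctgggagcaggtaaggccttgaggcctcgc
Atp5g3 (chr2:73911277-73911576, minus strand): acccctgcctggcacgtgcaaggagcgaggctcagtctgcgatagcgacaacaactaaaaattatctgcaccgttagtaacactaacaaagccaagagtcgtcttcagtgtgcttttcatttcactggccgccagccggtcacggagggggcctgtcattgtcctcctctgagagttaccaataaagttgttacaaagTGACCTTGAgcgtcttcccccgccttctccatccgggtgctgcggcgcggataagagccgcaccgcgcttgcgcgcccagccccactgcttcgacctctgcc
The Uqcc1 start used by RefSeq lay 250 bases from the start of its most counted transcript, and the others shown lay within 80 bases of theirs.

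The motifs searched were the estrogen-related receptor element TCAAGGTCA, the NRF1 core GCGCATGCG, the GABP core CCGGAAG and the SP1 box GGGCGG, which are the sites of factors known to act on respiratory genes. RefSeq promoters were matched for 30 of the 39 symbols. Among these, the starts of Atp5d, Sdhaf1 and Atpif1 lay 818, 1520 and 1755 bases from those of their most counted transcripts. The NRF1 core was found in 6 of the 30, or 20.0%, against 1.75% of 32817 promoters of the same length. It is nearly palindromic, so that Atp5g2 and Atp5k each hold it on both strands at overlapping positions. The GABP core was found in 11, or 36.7%, against 8.86% of all promoters. The estrogen-related receptor element was found in 2, Atp5g3 and Sdhd, or 6.67%, against 0.424%. The SP1 box was found in 15, or 50%, against 35.6%. These counts include Sdhaf1 for the GABP core and the SP1 box, and Atpif1 for the SP1 box. The 32817 promoters were not limited to genes with reads in these libraries, and the differences in share were not tested. Among the promoters printed, Atp5k holds both the NRF1 and the GABP core, Sdhaf4 and Uqcc1 hold the SP1 box alone, and Atp5g1 holds none of the 4. The promoter of Atp5d, which is not printed, holds none of the 4 either.

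Complex II consists of the flavoprotein Sdha, the iron-sulfur protein Sdhb and the membrane anchors Sdhc and Sdhd, and Sdhc alone of these 4 passed the test. Sdhc stood at 778, 754 and 673 CPM in cold mice 4, 11 and 15, against 1017, 1040 and 1036 CPM in control mice 2, 9 and 14. The control values were close together and the groups did not overlap. The log2 change was -0.49 ± 0.15 (SE), a fold of 0.713, with an adjusted p of 0.0318 by edgeR. The call was lost on leaving out any single library other than control mouse 2, with adjusted p values of 0.0787, 0.0962 and 0.117 without cold mice 4, 11 and 15, and of 0.0573 and 0.0598 without control mice 9 and 14. It was lost as well with library totals in place of TMM scaling (adjusted p = 0.0590), without the count filter (adjusted p = 0.394) and without cold mice 11 and 15 together (adjusted p = 0.547).

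The other subunits of complex II differed by less. Sdha stood at 221, 220 and 188 CPM in cold mice, against 201, 287 and 307 CPM in control mice. These groups overlapped, since control mouse 2 lay within the range of the cold mice, and the log2 change was -0.34 ± 0.21 (adjusted p = 0.256, edgeR). Sdhb stood at 1010, 1203 and 994 CPM in cold mice and at 1223, 1228 and 1229 CPM in control mice. Every cold library lay below the controls, yet the log2 change of -0.20 ± 0.15 did not pass the test (adjusted p = 0.345, edgeR). Sdhd, at 2296, 2173 and 2165 CPM in cold and 2203, 1743 and 1985 CPM in control mice, had a log2 change of 0.16 ± 0.15 (adjusted p = 0.429, edgeR). The 95% intervals ran from -0.81 to 0.14 for Sdha, from -0.54 to 0.14 for Sdhb and from -0.16 to 0.49 for Sdhd.

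Among the assembly factors of complex II, Sdhaf4 had the largest positive change of the 34 genes. Sdhaf4, a chaperone known to bind Sdha that already carries its flavin and to bring it to Sdhb, stood at 34.6, 47.0 and 32.6 CPM in cold mice 4, 11 and 15. In control mice 2, 9 and 14 it stood at 14.1, 11.3 and 9.60 CPM. Every cold value lay well above every control value. The log2 change was 1.69 ± 0.28 (SE), a 3.24-fold rise, with an adjusted p of 0.00099 by edgeR. The gene lies on the minus strand of chromosome 1 from 23995939 to 24005656 (GRCm38), and all of its reads were assigned to 1 transcript of 3 exons and 683 nt, Sdhaf4-201. The call was kept under every alternative tried, that without cold mice 11 and 15 included.

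The other 3 factors had low counts. Sdhaf1, known in human cells to help mature the iron-sulfur protein Sdhb, stood at 14.8, 16.9 and 21.7 CPM in cold mice, against 42.7, 23.6 and 20.4 CPM in control mice. The groups overlapped, and the log2 change of -0.72 ± 0.31 did not pass the test (adjusted p = 0.103, edgeR). Sdhaf2, which helps to attach flavin to Sdha, had 10, 8 and 11 reads in cold and 5, 3 and 5 reads in control libraries. Sdhaf3, another factor of the iron-sulfur subunit, had 3, 9 and 2 reads in cold and 3, 8 and 9 reads in control libraries. These counts were too low for the filter, and without it neither passed the test (adjusted p = 0.823 for Sdhaf2 and 0.171 for Sdhaf3, edgeR).

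**Figure D2:**
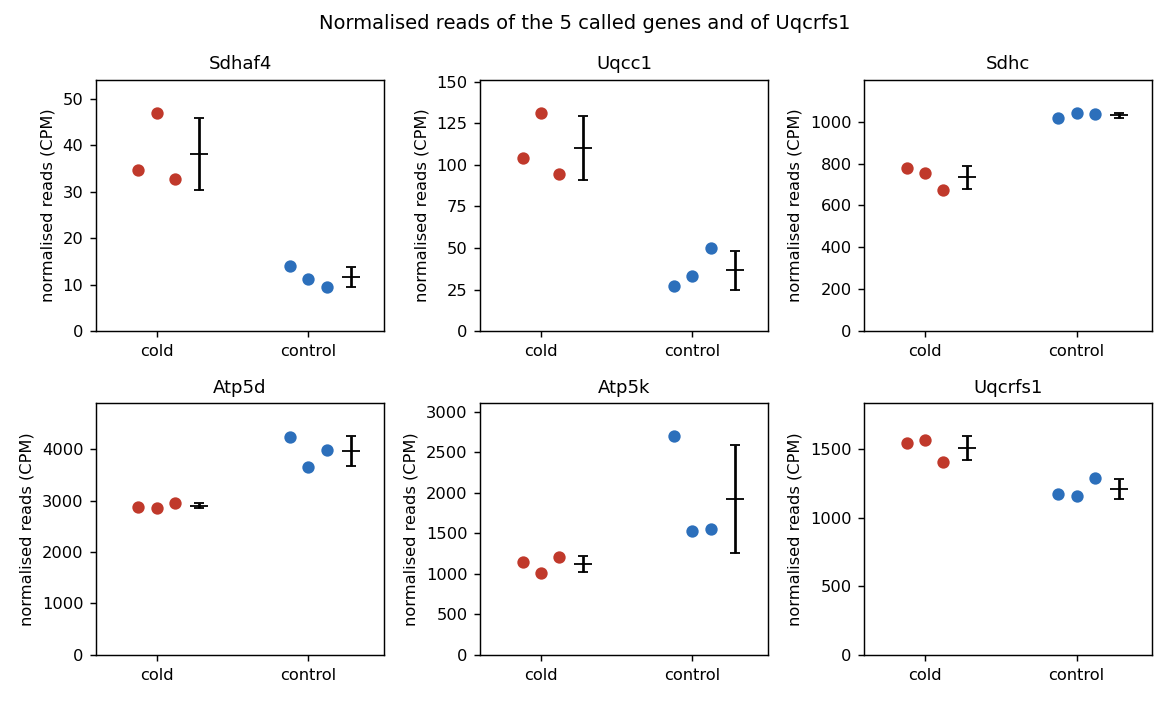
Points are libraries (y axis, CPM after TMM scaling), with cold left of control in each panel, and the bars beside them are the mean and SD of 3 mice. Cold and control mice do not overlap for any of the 6 genes: Sdhaf4, Uqcc1 and Uqcrfs1 lie higher in the cold, and Sdhc, Atp5d and Atp5k lower.

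None of the 9 nuclear subunits of complex III passed the test. The electron carriers among these nuclear subunits are a heme protein, encoded by Cyc1, and the Rieske iron-sulfur protein, encoded by Uqcrfs1. Uqcrfs1 stood at 1544, 1569 and 1409 CPM in cold mice 4, 11 and 15, against 1172, 1161 and 1292 CPM in control mice 2, 9 and 14. All cold values exceeded all control values, but the log2 change of 0.32 ± 0.15 missed the threshold (adjusted p = 0.119, edgeR). Cyc1 stood at 5892, 5632 and 5278 CPM in cold mice and at 5573, 6668 and 7076 CPM in control mice. Its groups overlapped, and its log2 change was -0.20 ± 0.14 (adjusted p = 0.291, edgeR).

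The core proteins Uqcrc1 and Uqcrc2, which hold the complex together on the matrix side, did not differ detectably. Uqcrc1 stood at 2689, 2679 and 2309 CPM in cold mice, against 1767, 2109 and 2647 CPM in control mice, with a log2 change of 0.24 ± 0.17 (adjusted p = 0.322, edgeR). Uqcrc2 stood at 5865, 6188 and 5501 CPM in cold mice, against 4695, 6256 and 6580 CPM in control mice. The mean of Uqcrc2 was nearly the same in both groups, and the 95% interval of its log2 change ran from -0.34 to 0.34 (adjusted p = 0.996, edgeR).

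The 5 small subunits, Uqcrb, Uqcrq, Uqcrh, Uqcr10 and Uqcr11, all had negative log2 changes, from -0.51 to -0.05, and none passed the test. Uqcrb, which contacts cytochrome b, came nearest, at 1581, 1226 and 1435 CPM in cold mice, against 2488, 1718 and 1826 CPM in control mice. The groups did not overlap, and the adjusted p was 0.0526 by edgeR. Uqcrb was called lower with DESeq2, with libraries thinned to equal depth, on either flow cell alone, with protein-coding transcripts alone and without control mouse 9. It was not called with library totals, with reads of near-identical genes added, without any single cold library or without control mouse 2 or 14. Nor was it called without the count filter (adjusted p = 0.262, edgeR) or with the trend of counts against transcript length removed (adjusted p = 0.168, edgeR). In Uqcr10 and Uqcrq, too, every cold library lay below every control (adjusted p = 0.0886 and 0.108, edgeR). With the trend of counts against transcript length removed, the log2 changes were -0.34 for Uqcrq, -0.24 for Uqcrb and -0.08 for Uqcr10. Those of Uqcr11 and Uqcrh were then -0.04 and 0.19, and Uqcrq alone of the 5 was called lower. The summed level of the 9 subunits was 29224 ± 621 CPM in cold and 32503 ± 709 CPM in control libraries (SD, n = 3 each). As a share of all reads before TMM scaling, the sum came to 3.04%, 2.97% and 2.94% in cold mice and to 3.30%, 3.04% and 3.15% in control mice, with the highest cold and the lowest control share nearly touching.

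Of the assembly factors of complex III, Uqcc1 rose. Uqcc1, known in human cells to act with Uqcc2 in making and placing cytochrome b, stood at 104, 131 and 94.5 CPM in cold mice 4, 11 and 15, against 27.0, 32.9 and 49.8 CPM in control mice 2, 9 and 14. The groups were well apart, and cold mouse 11 was highest. The log2 change was 1.58 ± 0.27 (SE), a 3.00-fold rise, with an adjusted p of 0.00129 by edgeR. The gene lies on the minus strand of chromosome 2 from 155846894 to 155930310 (GRCm38). The call was kept under every alternative tried, that without cold mice 11 and 15 included.

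Its partner Uqcc2 did not move with it detectably. Uqcc2 stood at 42.6, 49.3 and 48.4 CPM in cold mice, against 50.3, 42.1 and 24.0 CPM in control mice, with a log2 change of 0.27 ± 0.28 (adjusted p = 0.485, edgeR). Uqcc3, which acts later on cytochrome b, stood at 7.38, 4.96 and 6.26 CPM in cold mice, against 15.7, 5.14 and 11.4 CPM in control mice. Its groups overlapped and its log2 change of -0.87 ± 0.39 had an adjusted p of 0.107 by edgeR. Whether the change of Uqcc1 differed from those of Uqcc2 and Uqcc3 was not tested.

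Cycs, the mobile electron carrier between complex III and cytochrome c oxidase, stood at 1260, 1048 and 1628 CPM in cold mice, against 1789, 1080 and 1202 CPM in control mice. The groups overlapped widely, and the log2 change was -0.05 ± 0.23 (adjusted p = 0.883, edgeR). A near-identical annotated gene, Gm10053, held 389 reads over the 6 libraries, so that a small part of the Cycs reads may have been split off in counting. With its reads added, the call did not change.

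ATP synthase was measured through 15 tested nuclear subunit genes, of which 2 were lower in the cold and none was higher. The catalytic head is a hexamer of alpha and beta subunits. Atp5b, which encodes beta, stood at 8615, 9646 and 8933 CPM in cold mice 4, 11 and 15, against 7086, 8251 and 10533 CPM in control mice 2, 9 and 14. The control values spanned the cold ones, and the log2 change was 0.07 ± 0.16 (adjusted p = 0.755, edgeR). Atp5a1, which encodes alpha, stood at 6992, 6890 and 6256 CPM in cold mice, against 7048, 8937 and 9584 CPM in control mice. Every cold library lay below the controls, but the log2 change of -0.34 ± 0.15 missed the threshold (adjusted p = 0.0942, edgeR). Atp5a1 was called lower without control mouse 2 (adjusted p = 0.00623) and with the trend of counts against transcript length removed (adjusted p = 0.00227).

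The central stalk turns inside that head and is made of the gamma, delta and epsilon subunits. Atp5d, which encodes delta, stood at 2883, 2858 and 2956 CPM in cold mice, against 4234, 3652 and 3993 CPM in control mice. The cold values lay close together and below all controls. The log2 change was -0.45 ± 0.13 (SE), a fold of 0.732, with an adjusted p of 0.0245 by edgeR. The call was lost without cold mouse 4, 11 or 15 (adjusted p = 0.0906, 0.0958 and 0.0687), with library totals (adjusted p = 0.0545), without the count filter (adjusted p = 0.346) and without cold mice 11 and 15 together (adjusted p = 0.426). Atp5c1, which encodes gamma, stood at 1870, 1875 and 1967 CPM in cold mice and at 1719, 2235 and 2085 CPM in control mice. Its groups overlapped, and its log2 change was -0.08 ± 0.15 (adjusted p = 0.712, edgeR). Atp5e, which encodes epsilon, had a log2 change of -0.01 with a 95% interval from -0.30 to 0.28.

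Of the 4 peripheral stalk genes, Atp5f1, Atp5h, Atp5j and Atp5o, none passed the test, and their log2 changes ran from -0.24 to 0.00. Cold and control libraries overlapped in all 4. Atp5o, the link between stalk and head, averaged 3366 ± 127 CPM in cold and 3366 ± 273 CPM in control libraries (SD, n = 3 each).

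Among the membrane accessory subunits, Atp5k was lower in the cold. Atp5k, which encodes subunit e, known to help ATP synthase form dimers, stood at 1149, 1005 and 1203 CPM in cold mice 4, 11 and 15. In control mice 2, 9 and 14 it stood at 2696, 1529 and 1556 CPM. The groups did not overlap, although control mouse 2 stood far above the other controls. The log2 change was -0.78 ± 0.22 (SE), a fold of 0.581, with an adjusted p of 0.0200 by edgeR. Without control mouse 2 the gene was still called, with a log2 change of -0.47. The call was lost without cold mouse 4 (adjusted p = 0.0601), without cold mouse 11 (adjusted p = 0.0762) and without cold mice 11 and 15 together (adjusted p = 0.209).

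Its neighbours in the membrane did not share this call. Atp5l, which encodes subunit g and pairs with subunit e, averaged 16062 ± 658 CPM in cold and 15644 ± 1253 CPM in control libraries, with a log2 change of 0.04 and a 95% interval from -0.23 to 0.30. Reads of Atp5l-like pseudogenes were few, at most 34 over all libraries for any one of them. Atp5j2, which encodes subunit f, had a log2 change of -0.32 ± 0.21 (adjusted p = 0.262, edgeR), and Atp5mpl, a small proteolipid, had 0.19 ± 0.23 (adjusted p = 0.547, edgeR). Atp5mpl was called higher without control mouse 2 and with the length trend removed (adjusted p = 0.00272 for the second). Usmg5, another small subunit whose symbol lies outside the rule, had a log2 change of 0.31 ± 0.25 (adjusted p = 0.367, edgeR).

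The rotating ring is built of 1 protein encoded by 3 genes, Atp5g1, Atp5g2 and Atp5g3, which differ in the leader peptide that is cut off on import. Atp5g3 stood at 378, 420 and 634 CPM in cold mice 4, 11 and 15, against 362, 334 and 428 CPM in control mice 2, 9 and 14. Atp5g2 stood at 135, 129 and 168 CPM in cold mice, against 233, 115 and 152 CPM in control mice. Both overlapped between the groups, with log2 changes of 0.35 ± 0.23 for Atp5g3 and -0.22 ± 0.27 for Atp5g2 (adjusted p = 0.262 and 0.553, edgeR). A transcribed pseudogene matching Atp5g2, Gm10175, held 149 reads, against 2096 of Atp5g2.

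Atp5g1 was near the floor in most libraries. It had 5, 40 and 352 reads in cold mice 4, 11 and 15, against 2, 3 and 4 reads in control mice 2, 9 and 14, or 1.68, 13.2 and 116 CPM against 1.08, 3.08 and 2.40 CPM. Cold mouse 15 held most of its reads, and cold mouse 4 lay among the controls. As a share of c-subunit reads, Atp5g1 came to 0.327%, 2.36% and 12.6% in cold mice, against 0.181%, 0.682% and 0.412% in control mice. The exact 95% binomial intervals, which cover counting error only, were 11.4% to 13.9% in cold mouse 15 and reached at most 1.98% in a control mouse. The mean share was 5.11% ± 6.60 in cold and 0.425% ± 0.25 in control mice (SD, n = 3 each), a difference of 4.68 percentage points with a two-sided exact permutation p of 0.3, where 0.1 is the smallest p possible. With reads divided by transcript length, the means were 3.72% in cold and 0.301% in control mice.

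The order of the cold mice in Atp5g1 was that of the skeletal muscle markers, whose sums were 314, 3709 and 18046 CPM in cold mice 4, 11 and 15. Those sums were 230, 788 and 1269 CPM in control mice 2, 9 and 14. The part of muscle RNA in the Atp5g1 reads was not tested. Without cold mouse 15 the difference in share was 0.916 percentage points, and without cold mice 11 and 15 it was -0.098. Without cold mouse 4 Atp5g1 passed the count filter and was called higher (4.92 ± 1.13, adjusted p = 0.0309, edgeR). It also passed the filter without control mouse 2, 9 or 14 and was not called (adjusted p = 0.383, 0.326 and 0.336, edgeR). Without the count filter its log2 change was 4.51 ± 2.12 (adjusted p = 0.453, edgeR). Atpif1, the inhibitor that binds the catalytic head, had 2, 2 and 5 reads in cold mice and 0, 1 and 2 reads in control mice, too few to compare.

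**Figure D3:**
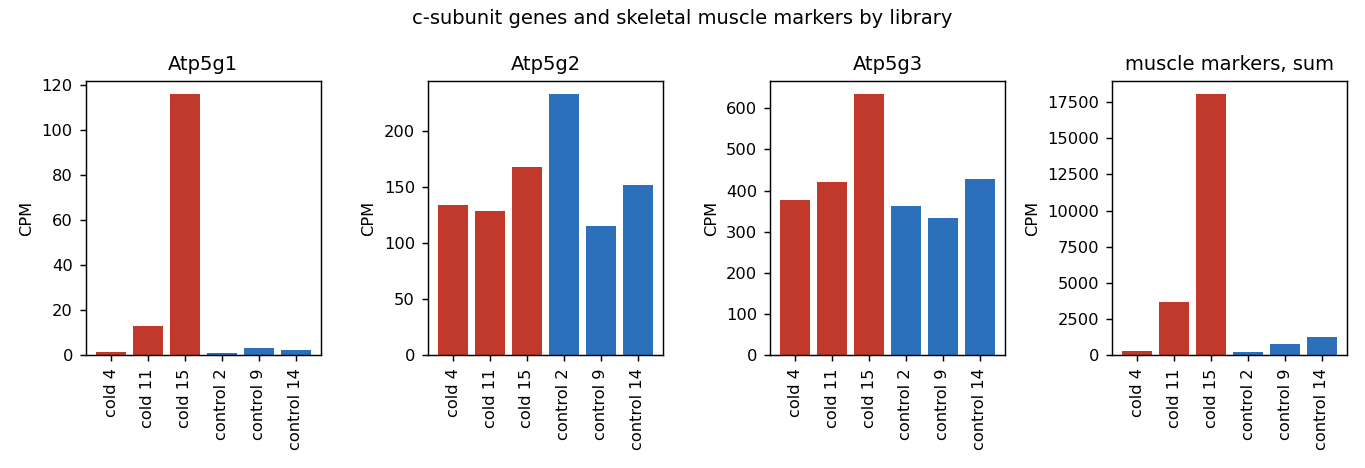
Bars are single libraries (y axis, CPM after TMM scaling, each panel with its own scale), with the 3 cold libraries left of the 3 control libraries. Atp5g1 reaches 116 CPM in cold mouse 15 and at most 13.2 CPM elsewhere, and the summed muscle markers are highest in the same library at 18046 CPM, while Atp5g2 and Atp5g3 overlap between the groups.

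The partners encoded in mitochondrial DNA were all lower in the cold. mt-Cytb, the cytochrome b of complex III, stood at 13244, 11652 and 9948 CPM in cold mice 4, 11 and 15, against 16380, 25535 and 17325 CPM in control mice 2, 9 and 14. Its log2 change was -0.77 ± 0.18 (adjusted p = 0.00879, edgeR), a call that was lost without cold mice 11 and 15 together (adjusted p = 0.259). mt-Atp6, the ATP synthase subunit through which protons reach the ring, stood at 3011, 2763 and 2501 CPM in cold mice, against 7655, 12232 and 6830 CPM in control mice. Its log2 change was -1.69 ± 0.21 (adjusted p = 0.000215, edgeR). mt-Atp8 stood at 15.1, 12.9 and 17.1 CPM in cold mice, against 95.7, 95.6 and 36.0 CPM in control mice, with a log2 change of -2.32 ± 0.36 (adjusted p = 0.000726, edgeR). Every cold library lay below every control for all 3. mt-Atp6 and mt-Atp8 are carried by 1 RNA in overlapping frames, so that reads cannot be split between them with certainty. Mitochondrial messengers have no cap, and the kit favours capped molecules.

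The nuclear subunits of complex III and ATP synthase had log2 changes between -0.78 and 0.35. Summed over genes, ATP synthase subunits came to 60375 ± 1653 CPM in cold and 64453 ± 3450 CPM in control libraries (SD, n = 3 each), and these sums overlapped. Of 12 further assembly and transport genes outside the rule, 7 could be tested and 2 were called, both lower in the cold. That share was 28.6%, against 33.2% of all genes tested, and 15.1% of all genes were called lower. Slc25a5, an ADP/ATP carrier of the inner membrane, stood at 273, 250 and 303 CPM in cold mice, against 728, 504 and 707 CPM in control mice, without overlap. Its log2 change was -1.23 ± 0.20 (adjusted p = 0.00098, edgeR). Cox7a2l is known for a role in joining complex III to cytochrome c oxidase, which was not examined in these mice. The gene stood at 11.4, 17.2 and 25.4 CPM in cold mice, against 45.4, 23.6 and 43.8 CPM in control mice. Its groups overlapped, and its log2 change was -1.09 ± 0.34 (adjusted p = 0.0300, edgeR). The call was lost without cold mouse 4 or 11 and without control mouse 2 or 14 (adjusted p = 0.106, 0.0869, 0.0792 and 0.0879). It was lost as well on flow cell 1 alone, with a log2 change of -1.02 (adjusted p = 0.0953, edgeR).

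**Figure D4:**
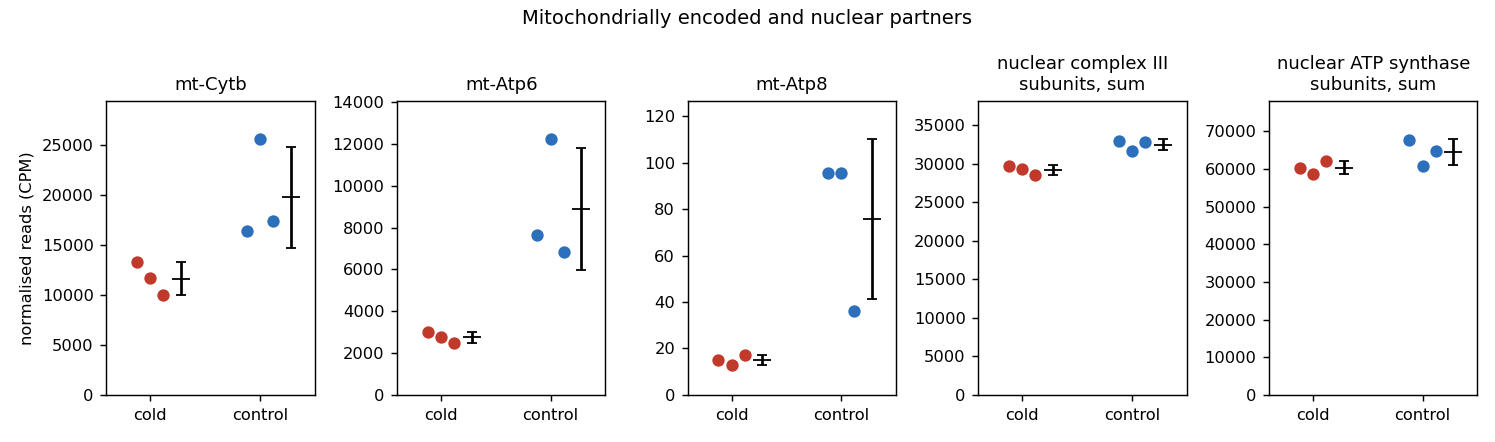
Points are libraries (y axis, CPM after TMM scaling, each panel with its own scale from 0), with cold left of control, and bars are the mean and SD of 3 mice. mt-Cytb, mt-Atp6 and mt-Atp8 lie lower in every cold library, and the mean sum of nuclear complex III subunits is 29224 CPM in cold against 32503 CPM in control libraries.

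The neighbouring complexes of the chain serve as a comparison. Of 36 tested subunit genes of complex I, the Nduf genes other than Ndufaf assembly factors and Ndufa4, 2 were higher and 7 lower in the cold, with a median log2 change of -0.18. Of 12 tested genes of the Cox4 to Cox8 families, which belong to cytochrome c oxidase, 4 were lower and none was higher. Cox7a2l was left out, and the median was -0.38. Genes called made up 25% in complex I and 33.3% in cytochrome c oxidase, against 33.2% of all genes tested. Genes called lower made up 19.4% and 33.3%, against 15.1%. For the nuclear subunits described here the medians were -0.27 in complex II, -0.20 in complex III and -0.08 in ATP synthase. No test of these differences between complexes was made.

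Reads were also counted by annotated transcript. How reads that match several transcripts were assigned is not given, and its part in the shares below was not tested. Reads fell on 146 transcripts, and 73 could be tested, of which 3 were higher and 7 lower in the cold. Over all 2787 transcripts tested, 17.4% were higher and 15.3% lower. Protein-coding transcripts held 91.4%, 91.7% and 90.5% of the reads of these genes in cold mice 4, 11 and 15, and 88.8%, 91.3% and 91.3% in control mice 2, 9 and 14. Control mouse 2 thus had the lowest share, and the groups overlapped.

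In Uqcc1 both tested transcripts rose. Uqcc1-207, of 10 exons and 2413 nt and annotated as a target of nonsense-mediated decay, had 214, 256 and 191 reads in cold libraries, against 30, 13 and 51 reads in control libraries. Its log2 change was 1.84 ± 0.31 (adjusted p = 0.000806, edgeR). The protein-coding Uqcc1-204, of 2633 nt, had 87, 132 and 83 reads in cold libraries, against 19, 16 and 30 reads in control libraries (1.18 ± 0.31, adjusted p = 0.0128, edgeR). Uqcc1-207 thus held 66.7% ± 2.28 of the gene's reads in cold and 54.0% ± 11.6 in control libraries (SD, n = 3 each). Uqcc1 did not pass the test of transcript usage. Atp5k was lower in both its coding transcript Atp5k-201 (-0.81 ± 0.23, adjusted p = 0.0186, edgeR) and its retained intron form Atp5k-203 (-0.76 ± 0.22, adjusted p = 0.0199, edgeR). Atp5k-203 held 47.3% of the gene's reads in cold and 46.6% in control libraries.

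The other called transcripts were Sdhaf4-201, which was higher, and Atp5d-201, Sdhc-202, Uqcrb-201, Atp5c1-201 and Atp5e-202, which were lower. Atp5d has a pair of coding transcripts that could be tested. Of these, Atp5d-201, of 931 nt, had a log2 change of -0.53 ± 0.15 (adjusted p = 0.0158, edgeR). It held 44.2% of the gene's reads in cold and 46.8% in control libraries. Atp5c1-201 and Atp5e-202 were minor forms, at 3.50% and 0.229% of their genes' reads in cold and 5.18% and 0.411% in control libraries. Their log2 changes were -0.63 ± 0.19 for Atp5c1-201 and -0.82 ± 0.27 for Atp5e-202 (adjusted p = 0.0266 and 0.0375, edgeR). Uqcrb-201 held nearly all reads of Uqcrb and passed at the transcript level (-0.51 ± 0.18, adjusted p = 0.0481, edgeR).

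Transcript usage, the split of a gene's reads among its transcripts, was not detectably changed. Of the 22 genes with at least 2 tested transcripts, none passed diffSpliceDGE at an adjusted p under 0.05, and 1, Atp5e, had an unadjusted p under 0.05. Over all 539 genes tested for usage, 1.67% passed. The counted reads of several genes were divided nearly evenly in both groups. Atp5f1-203, annotated as a target of nonsense-mediated decay, held 46.8% ± 0.242 of Atp5f1 reads in cold and 47.6% ± 1.49 in control libraries. Atp5j2-204, of the same class, held 48.9% ± 0.355 of Atp5j2 reads in cold and 48.0% ± 0.574 in control libraries. The non-coding forms Uqcr10-203 and Uqcrh-204 held 59.6% and 54.1% of their genes' reads in cold libraries, against 58.8% and 52.4% in control libraries.

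Transcript length varied with the change across the whole table. The median length was 990 nt over the 34 genes and 1717 nt over all genes tested. Counted transcripts had a mean annotated length of 1556 ± 24.4 nt in cold and 1453 ± 77.5 nt in control libraries (SD, n = 3 each; two-sided exact permutation p = 0.1, the smallest possible). Over all genes tested, the median log2 change ran from -0.19 in the shortest of 4 equal length classes through 0.01 and 0.14 to 0.26 in the longest. Of the 34 genes, 17 were under 1000 nt, with a median of -0.16, and 17 were longer, with a median of -0.08. Control mouse 2 was the highest control in 15 of the 17 short genes, and in 69.6% of all genes under 1000 nt. Across the 34 genes, length and log2 change had a Spearman rho of -0.02, against 0.19 across all genes, where genes share libraries and are not independent.

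With each library's trend of counts against length removed, 3 of the 34 genes were higher and 6 lower in the cold. Sdhaf4 (1.93 ± 0.28), Uqcc1 (1.40 ± 0.23), Atp5d (-0.40 ± 0.11), Atp5k (-0.44 ± 0.12) and Sdhc (-0.78 ± 0.14) kept their calls. Atp5mpl (0.62 ± 0.13) was then higher, and Atp5a1 (-0.55 ± 0.11), Sdha (-0.58 ± 0.17) and Uqcrq (-0.34 ± 0.12) were lower. Removing the trend took Atp5k, at 461 nt on average, closer to 0, and moved Sdhc, at 3168 nt, away from it.

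**Figure D5:**
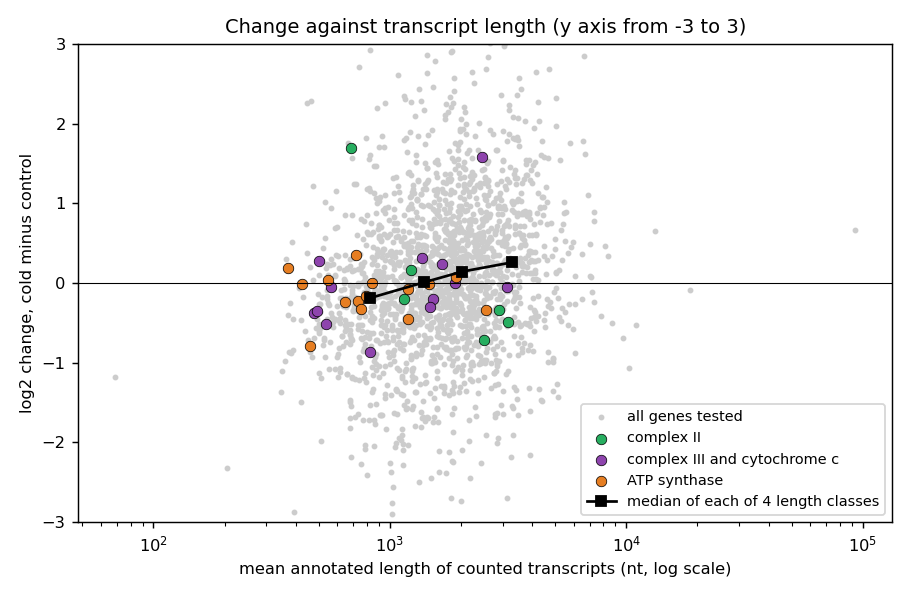
Each point is a gene, with the mean annotated length of its counted transcripts on a log x axis (nt) and its log2 change on the y axis (cold minus control, drawn from -3 to 3, with genes beyond not shown). Coloured points are the 34 genes by complex, and black squares are the medians of all genes in 4 equal length classes, which run from -0.19 to 0.26.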

How the data were processed

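Expression was measured in 3 cold and 3 control libraries of brown fat, each read on 2 flow cells. The deposited files hold raw counts of reads per Ensembl transcript, per the file headers, with no normalization by the authors. The submitters' processing notes name minimap2 and GRCm38, and the assignment of reads that match several transcripts is not given there. A transcript absent from a file was taken as having 0 reads.

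Counts were summed over flow cells and, for genes, over transcripts through GENCODE M21. Of 14693 identifiers, 22 did not match and were left out. edgeR 4.0.16 in R 4.3.3 was run over all genes, with filterByExpr at a minimum count of 10, TMM scaling, robust quasi-likelihood fits and Benjamini-Hochberg adjustment at 0.05. Standard errors were computed from the F statistic. Transcripts were fitted likewise, and usage was tested with diffSpliceDGE. DESeq2 1.42.0 was an alternative, with others on scaling, filter, depth, flow cell, coding transcripts, length trend (loess span 0.5), near-identical copies (blastn 2.17.0+, 95% identity over 80% of the shorter transcript) and single libraries. The scripts were tested on simulated counts.

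Library totals ran from 1014847 to 2982713 reads, and the labels mention no molecular identifiers. The binomial intervals of the c-subunit shares and the read floors therefore cover counting error only. Intervals of the changes between groups come from the edgeR fits and include the spread between libraries. Beyond the strain, sex, genotype, age and treatment given above, the records name the mice only by number. The edgeR p-values set each difference between groups against the spread between these libraries, as estimated in the robust quasi-likelihood fits. Genes with values in every library are those called, the subunits that carry electrons, protons or catalysis, and the mitochondrial partners. Other genes given by library, such as Uqcrb, Uqcc2 and Sdhaf1, were chosen after their values were seen. The genes, lists and alternatives were chosen with earlier results of these data known. Exons of 8 of these genes overlap another gene on the opposite strand, which held at most 121 reads, beside Uqcrc2, and whether counting used strand is not stated.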

Additional observations from a re-analysis of the deposited data

How the results depend on the processing

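Sdhaf4 and Uqcc1 were called higher under every alternative. The number of these genes called higher was 2, and 3 with the length trend removed, without cold mouse 4 and without control mouse 2. The number called lower, 3 in the main analysis, was 1 with library totals (Atp5k), 1 without the count filter (Atp5k) and 6 with the length trend removed. It ran from 0 to 5 over single libraries left out: 0 without cold mouse 4 or 11, 1 without cold mouse 15 (Atp5k), 2 without control mouse 14, 4 without control mouse 9 (Uqcc3 and Uqcrb among them) and 5 without control mouse 2 (Atp5a1 and Sdhaf3 among them). It was 4 with DESeq2, where 685 of all genes were called against 695 by edgeR. All genes called numbered 498 to 687 with 1 library left out. Without both cold mice 11 and 15, which was chosen after seeing the data, 0 of these genes were called lower by edgeR, 2 of the 35 tested had an unadjusted p under 0.05, and 321 of all genes were called. The lone cold library was then assumed to vary like the controls. Transcripts of these genes called numbered 10, 5 without the count filter, and 2 to 14 over single libraries left out: 2 without cold mouse 11 and 4 without cold mouse 4. Usage calls stayed at 0. The difference in Atp5g1 share, 4.68 points, ran from 0.916 (without cold mouse 15) to 7.07 (without cold mouse 4) and was -0.098 without cold mice 11 and 15. Of the remaining values of named genes under alternatives, 343 kept direction and side of the threshold, 23 lost and 3 gained a call, and 15 changed sign, all of genes that were not called under either setting. The log2 change of Uqcrc2, 0.00, was -0.047 with DESeq2, -0.039 on flow cell 1, -0.012 with coding transcripts and -0.12 with the length trend removed, and ran from -0.14 (without control mouse 2) to 0.070 (without control mouse 14) with 1 library left out. That of Cycs, -0.05, was 0.016 with library totals and 0.068 without the count filter, and ran from -0.23 (without cold mouse 15) to 0.19 (without control mouse 2). That of Atp5b, 0.07, was -0.053 with the length trend removed, and ran from -0.062 (without control mouse 2) to 0.21 (without control mouse 14). That of Atp5c1, -0.08, was 0.047 without the count filter. That of Atp5g2, -0.22, ran from -0.46 (without control mouse 9) to 0.089 (without control mouse 2). Over all tested genes of these complexes, 28 to 33 kept their sign in each setting. The causes were not tested. Calls higher made up 54.4% of all calls, against 60.6% with library totals, 63.4% without the count filter and 62.6% without cold mice 11 and 15. The median of all genes shifted to 0.30 without the filter, against 0.04. No paired analysis was possible because the groups share no mouse numbers. With 3 mice a group, a subunit change near the median standard error of 0.17 could not be told from 0, and genes at a few reads, such as Atpif1, could not be compared.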
